A study of Mus musculus with 7 samples.

Results

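Distal shared sites are places in the genome of mouse skeletal muscle where peaks of both BMAL1 and REV-ERBα were listed and where no protein-coding gene starts nearby. Overlapping peaks (1 bp or more) of the 2 BMAL1 and the 2 REV-ERBα lists were merged, and a merged site counted as shared when at least 3 of these 4 lists had a peak in it. A shared site was distal when its midpoint lay more than 10000 bp from the nearest transcription start site (TSS) of a protein-coding gene. Of 550 shared sites, 299 (54.4%) were distal and 251 were nearer. The presence of peaks and the distance chose these sites, so both are descriptions and neither was tested.

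The lists come from chromatin immunoprecipitation followed by sequencing (ChIP-seq), which recovers and sequences the DNA that an antibody brings down with a protein. Every sample was gastrocnemius, a calf muscle, of wild type male C57BL/6J mice 5 months of age that lived under 12 h of light and 12 h of dark with standard chow. Muscle was taken at Zeitgeber time (ZT, hours after lights on) 4 for BMAL1 and RNA polymerase II (RNAP2), and at ZT 8 for REV-ERBα, with 2 replicates of each. REV-ERBα was brought down with a mixture of 2 antibodies, and input DNA, which has not been enriched with an antibody, was the control for every list. The factors were therefore mapped at different times of day, and a site shared by their lists was not seen to hold both at one time. The values come from whole muscle, in which fewer cells of a type and less binding per cell cannot be told apart.

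BMAL1 pairs with CLOCK to activate transcription in the circadian clock and binds E-box sequences. REV-ERBα is a nuclear receptor that represses transcription and is itself a clock gene product, and its binding often lies far from promoters. Sites far from a promoter can be enhancers, the start sites of noncoding genes, or stretches of an actively transcribed gene body, and polymerase is a mark of the transcribed ones.

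Sequences from the reference genome (GRCm38, mm10, plus strand) show what the strongest of these sites hold. Each window spans 100 bp to each side of the summit of the site's strongest peak. Capitals mark matches, on either strand, to the E-box CACGTG, its variant CACGTT, the nuclear receptor core site AGGTCA, the REV-ERB/ROR monomer, the myogenic E-box CAGCTG or the MEF2 site. The monomer pattern ends in AGGTCA or GGGTCA, and a monomer is also counted as a core site only where it ends in AGGTCA. The first 3 windows belong to the strongest sites with peaks in all 4 lists, and the last is an intronic member of the run of sites at *Mylk4*.
Mir1a-1 and Mir133a-2 locus, chr2:180400066-180400266: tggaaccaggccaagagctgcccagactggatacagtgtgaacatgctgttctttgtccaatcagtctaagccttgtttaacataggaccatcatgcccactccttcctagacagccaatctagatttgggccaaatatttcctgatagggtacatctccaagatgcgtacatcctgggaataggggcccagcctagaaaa
Nctc1, chr7:142550808-142551008: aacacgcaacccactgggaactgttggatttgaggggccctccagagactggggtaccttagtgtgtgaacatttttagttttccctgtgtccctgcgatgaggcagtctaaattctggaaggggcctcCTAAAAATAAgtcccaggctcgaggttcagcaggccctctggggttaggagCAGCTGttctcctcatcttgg
3′ side of Pvalb, chr15:78188617-78188817: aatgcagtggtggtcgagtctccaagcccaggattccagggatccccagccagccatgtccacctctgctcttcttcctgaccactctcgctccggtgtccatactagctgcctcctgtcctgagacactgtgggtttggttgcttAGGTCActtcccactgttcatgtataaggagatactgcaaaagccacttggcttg
Mylk4 intron, chr13:32748569-32748769: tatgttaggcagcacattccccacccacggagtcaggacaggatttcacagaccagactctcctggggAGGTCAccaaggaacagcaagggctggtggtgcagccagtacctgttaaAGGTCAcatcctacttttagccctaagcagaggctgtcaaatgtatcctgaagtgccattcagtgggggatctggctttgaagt

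None of these 4 windows held the E-box CACGTG. It was found in the windows of 9 distal sites, and these are printed with 20 bases to each side of the E-box nearest to the summit, named by the nearest protein-coding gene and, where there is one, the noncoding gene.
Gm5799, chr14:43521832-43521877: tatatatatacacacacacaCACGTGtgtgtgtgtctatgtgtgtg
Gvin1, chr7:106260921-106260966: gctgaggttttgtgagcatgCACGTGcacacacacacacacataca
Mkln1 (Lncpint), chr6:31216718-31216763: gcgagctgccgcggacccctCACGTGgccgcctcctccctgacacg
E2f7, chr10:110799289-110799334: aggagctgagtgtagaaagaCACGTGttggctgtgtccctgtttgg
Lsm3 (Gm45218), chr6:91599158-91599203: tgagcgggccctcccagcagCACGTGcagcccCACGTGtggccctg
Amy2a5, chr3:112097178-112097223: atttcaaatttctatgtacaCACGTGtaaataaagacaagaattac
Rps6ka1, chr4:133910761-133910806: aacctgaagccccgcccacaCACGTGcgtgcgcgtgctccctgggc
Speer4e, chr5:14951916-14951961: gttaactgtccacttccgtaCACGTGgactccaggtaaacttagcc
Epha4, chr1:76598400-76598445: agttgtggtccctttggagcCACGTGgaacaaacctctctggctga
The site nearest to *Lsm3* held 2 E-boxes with 6 bases between them, and the E-boxes nearest to *Gm5799* and *Gvin1* stand at runs of alternating pyrimidines and purines.

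The 299 distal sites lay far from protein-coding starts. Their median distance was 41333 bp (quartiles 19829 and 145821 bp), and 84 of them (28.1%) were farther than 100000 bp away. The site nearest to *Tenm3* (chromosome 8, 50420583 to 50421363) was the farthest at 1577022 bp, followed by one nearest to *Amy2a5* (chromosome 3, 111942578 to 111943684) at 1315520 bp. Just past the limit were sites at 10181 bp from *Gm21190* and 10449 bp from *Gm10354*, and just within it were sites at 9961 bp from *Ttn* and 9762 bp from *Bola3*. Intergenic midpoints were found for 163 sites (54.5%). A further 81 lay in introns and 15 in exons of protein-coding genes, and 40 lay inside noncoding genes, 35 of them in introns.

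The distal share of shared sites was lower than that of single peaks. Of all peaks on the main chromosomes, between 73.4% and 77.1% were distal in the 4 lists, and 78.1% of the genome's bases lie that far from a protein-coding TSS. Strong peaks were distal less often. At a −log10 p of at least 10, 15 of 154 and 14 of 166 REV-ERBα peaks were distal in replicates 1 and 2, as were 15 of 36 and 5 of 15 BMAL1 peaks. These are descriptions of the lists that chose the sites.

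**Figure D1:**
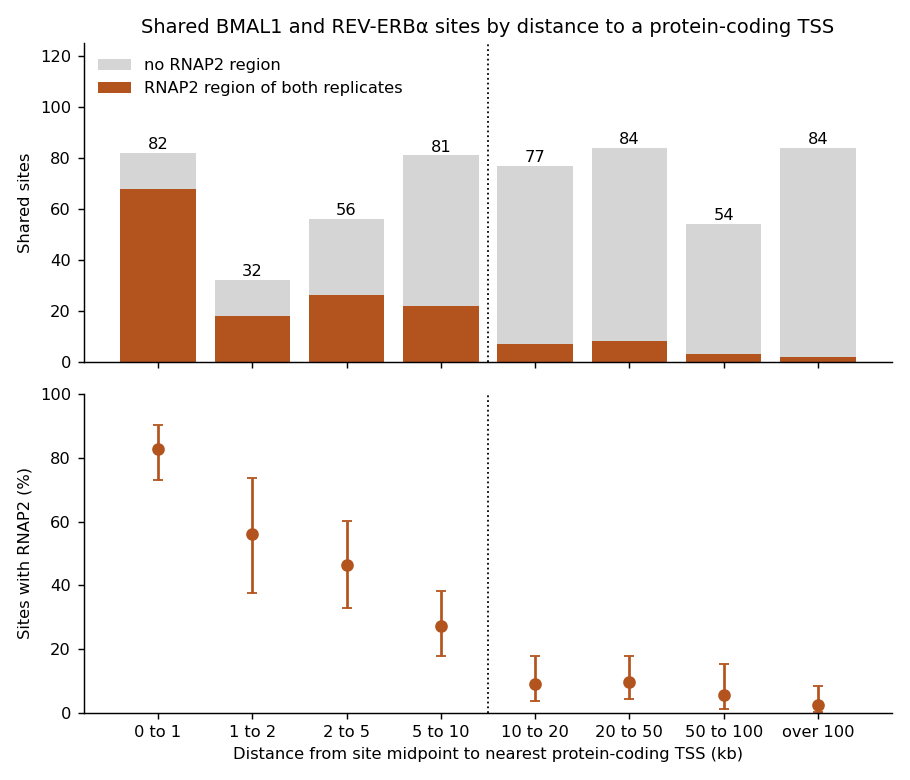
Shared sites by the distance in kb from their midpoint to the nearest protein-coding TSS; the dotted line is the 10 kb limit, bars count sites, and points give the share with an RNAP2 region of both replicates with its exact 95% interval. The share falls from 82.9% within 1 kb to 2.38% beyond 100 kb.

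Distal sites had a low strength in most cases. The strength of a site is the lowest −log10 p over the lists that have a peak in it, taking each list's highest peak. Its median was 2.01 for distal and 2.23 for nearer sites, and 40 distal sites (13.4%) against 51 nearer sites (20.3%) reached 3. Where the window has no second copy on the main nuclear chromosomes, 14 of 224 distal sites (6.25%) and 44 of 229 nearer sites (19.2%) did. Peaks in all 4 lists were present at 38 distal sites (12.7%) and 72 nearer ones (28.7%). The REV-ERBα medians were 2.85 and 3.18 at distal sites in replicates 1 and 2 and 4.09 and 3.75 at nearer sites. For BMAL1 the medians were 2.48 and 2.40 at distal sites and 2.995 and 2.40 at nearer sites. Merging required a BMAL1 peak to overlap a REV-ERBα peak at every shared site, so this held at all 299 distal sites by construction. The median distance between the strongest summits of the 2 factors was 320 bp, and 124 distal sites (41.5%) had them within 250 bp.

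Counting all distal sites with 3 lists, the missing list was nearly evenly spread. BMAL1 replicate 2 with both REV-ERBα lists made up 76 distal sites and BMAL1 replicate 1 with both REV-ERBα lists 61. Both BMAL1 lists made up 66 with REV-ERBα replicate 1 and 58 with replicate 2. Sites whose window occurs more than once in the genome were not evenly spread. They were 32 of the 61, against 14 of the 76, 10 of the 66 and 8 of the 58, so the remaining sites were less even. The lists differ in length, with 34737 and 177669 peaks in the BMAL1 lists and 28881 and 29934 for REV-ERBα, so a peak of BMAL1 replicate 2 is the least selective of the 4.

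The strongest distal site with peaks in all 4 lists spanned 23641 bp on chromosome 2 (180385204 to 180408844) and took in the hairpins of *Mir1a-1* and *Mir133a-2*, which encode microRNAs made in skeletal and heart muscle that act in muscle differentiation. Its −log10 p was 11.9 and 18.8 in BMAL1 replicates 1 and 2, 48.6 and 45.9 in REV-ERBα replicates 1 and 2, and 124 and 48.1 in RNAP2 replicates 1 and 2. Its fold enrichment over input was 5.06 and 6.61 in the BMAL1 lists and 12.2 and 12.7 for REV-ERBα. It was also the widest member, and the nearest protein-coding start, that of *Slco4a1*, lay 59221 bp away. A second site just beyond its end (180410546 to 180411377) had 3.36 in BMAL1 replicate 2, 3.57 and 3.18 for REV-ERBα, and 4.69 and 1.94 in the RNAP2 lists.

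At *Nctc1*, a noncoding gene near the imprinted *H19* and *Igf2* genes, the site of 11838 bp (chromosome 7, 142543225 to 142555062) was the next strongest with all 4 lists. Its values were 8.95 and 18.4 in the BMAL1 lists, 24.7 and 37.2 for REV-ERBα, and 51.8 and 19.4 in the RNAP2 lists. The nearest protein-coding TSS, of *Mrpl23*, was 13039 bp from its midpoint. A neighbouring site within *Nctc1* (142555496 to 142556956) had no peak of BMAL1 replicate 1, a value of 2.98 in BMAL1 replicate 2, 2.57 and 4.35 for REV-ERBα and 25.99 and 8.98 in the RNAP2 lists. Both sites thus had polymerase in both replicates.

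*Pvalb* encodes parvalbumin, the calcium buffer of fast muscle fibers. A site of 4684 bp (chromosome 15, 78185925 to 78190608) lay 506 bp past the 3′ end of *Pvalb*, and the nearest protein-coding TSS was that of *Ift27*, 14159 bp away. Both BMAL1 lists had a peak there, of 8.19 and 7.22, and the other values were 21.5 and 15.4 for REV-ERBα and 18.9 and 7.22 in the RNAP2 lists.

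*Neat1*, the noncoding RNA that builds nuclear paraspeckles, had 5 distal sites along 26397 bp of chromosome 19 (5824268 to 5850664). The strongest (5837585 to 5847077) covered the 5′ end of *Neat1*, with 7.03 and 8.12 in the BMAL1 lists, 11.4 and 13.3 for REV-ERBα, and 119 and 68.9 in the RNAP2 lists. The start of *Frmd8os*, an antisense gene that runs the other way, also lay inside it. RNAP2 regions of both replicates, that is, stretches of merged RNAP2 peaks to which both lists contribute, were at 4 of the 5 sites, some of which share 1 broad RNAP2 peak, and RNAP2 peaks covered 66.1% and 75.9% of the run in replicates 1 and 2. The exception, at the 3′ end of *Neat1* (5824268 to 5827839), had an RNAP2 peak of 2.48 in replicate 1 alone. The nearest protein-coding start of all 5 was that of *Frmd8*, at 13609 to 37628 bp.

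**Figure D2:**
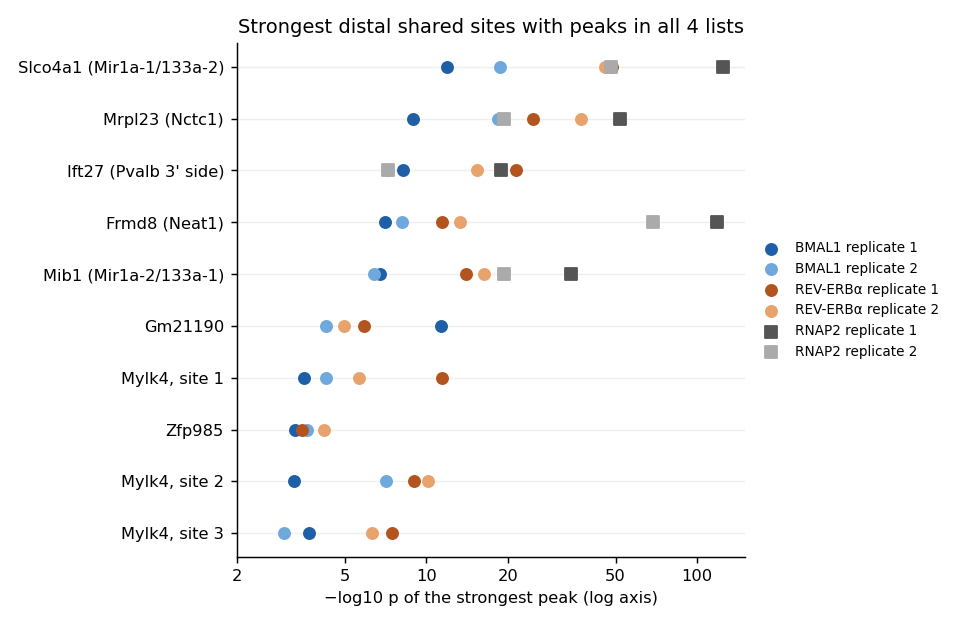
The −log10 p of the strongest peak of each list (log axis) at the 10 strongest distal sites found in every list of BMAL1 and of REV-ERBα, named by the nearest protein-coding gene; circles are BMAL1 and REV-ERBα, squares are RNAP2. The first 5 sites have RNAP2 in both replicates and the last 5, at *Gm21190*, *Mylk4* and *Zfp985*, have no RNAP2 peak.

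Mature microRNAs whose hairpins lie within 10000 bp of a distal site are given with their seed, bases 2 to 8, in capitals. Hairpins of 14 microRNA genes lay within that distance of 7 distal sites, and 6 of these genes were matched to RefSeq by symbol (GRCm38.p6). The first is of the chromosome 2 site described above, and the others are of the *Mir23a* cluster, which is expressed in muscle and acts on atrophy genes.
miR-1a-1-5p: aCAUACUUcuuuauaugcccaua
miR-23a-3p: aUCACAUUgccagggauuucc
miR-27a-3p: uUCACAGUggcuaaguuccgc
miR-24-3p: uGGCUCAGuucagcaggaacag
The distal site upstream of the *Mir23a*, *Mir27a* and *Mir24-2* hairpins (chromosome 8, 84200900 to 84201868) had 8.19 and 4.25 in the BMAL1 lists, 3.24 in REV-ERBα replicate 1 and no peak in REV-ERBα replicate 2. Its RNAP2 values were 36.9 and 19.2, and its end lay 6650 bp before the hairpin of *Mir23a*. The 4 mature sequences have 4 different seeds.

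RNAP2 regions present in both replicates overlapped 20 of the 299 distal sites (6.69%, exact 95% interval 4.13 to 10.1%). Among nearer shared sites the count was 134 of 251 (53.4%, interval 47.0 to 59.7%), and over all 550 shared sites the share was 28%. The difference, distal minus nearer, of -46.7 percentage points was called by Fisher's exact test (2-sided, adjusted p = 1.86e-34, 26 tests in the family). Distance to a protein-coding TSS split these 2 sets, and strong RNAP2 peaks in general lay near such starts. At a −log10 p of at least 10, 3.74% and 4.13% of RNAP2 peaks were distal in replicates 1 and 2, against 66.2% and 73.9% of all RNAP2 peaks. Whether the difference is particular to shared sites was not tested. Sites are not animals, so the p-values here and below compare sets of sites in these lists, and neighbouring sites are not independent. Among distal sites the count was 7 of 77 at 10 to 20 kb, 8 of 84 at 20 to 50 kb, 3 of 54 at 50 to 100 kb and 2 of 84 beyond 100 kb, and the intervals of these shares overlapped.

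Distal sites with both factors were also set against distal regions with 1 factor. Such regions needed peaks in 2 lists and shared sites in at least 3, and the sets were not matched for strength or width. With every peak at a −log10 p of at least 3, 48 distal shared sites, 92 REV-ERBα regions and 19 BMAL1 regions were left. At most 2000 bp wide were 245, 438 and 1783 of them in the same order, at any −log10 p. Regions with REV-ERBα in both replicates and no BMAL1 peak had RNAP2 at 22 of 442 (4.98%), and the difference of 1.71 points was not called (Fisher's exact test, adjusted p = 0.484). The intervals, 4.13 to 10.1% and 3.15 to 7.44%, overlapped. The difference was -4.89 points when every peak had to have a −log10 p of at least 3, and 16.1 points, and called, for sites with peaks in all 4 lists (adjusted p = 0.00619, exact test). Leaving out a BMAL1 or REV-ERBα list changed the sets too, since a shared site then needed all 3 lists left. Without a REV-ERBα list, the regions came from the other REV-ERBα list alone. The difference was then called, at 10 of 96 sites against 107 of 19863 regions without replicate 1 (9.88 points, adjusted p = 3.11e-09, exact test). Without replicate 2 it was called at 12 of 104 sites against 86 of 19099 regions (11.1 points, adjusted p = 2.38e-12, exact test). It was 6.88 and 7.27 points without BMAL1 replicate 1 and 2 and 6.12 and 5.56 points without RNAP2 replicate 1 and 2, not called. Regions with BMAL1 in both replicates and no REV-ERBα peak had RNAP2 at 8 of 1785 (0.448%, interval 0.194 to 0.881%), and this difference of 6.24 points was called (Fisher's exact test, adjusted p = 1.05e-10). With a −log10 p of at least 3 required of every peak, that call was lost (adjusted p = 0.902, exact test).

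**Figure D3:**
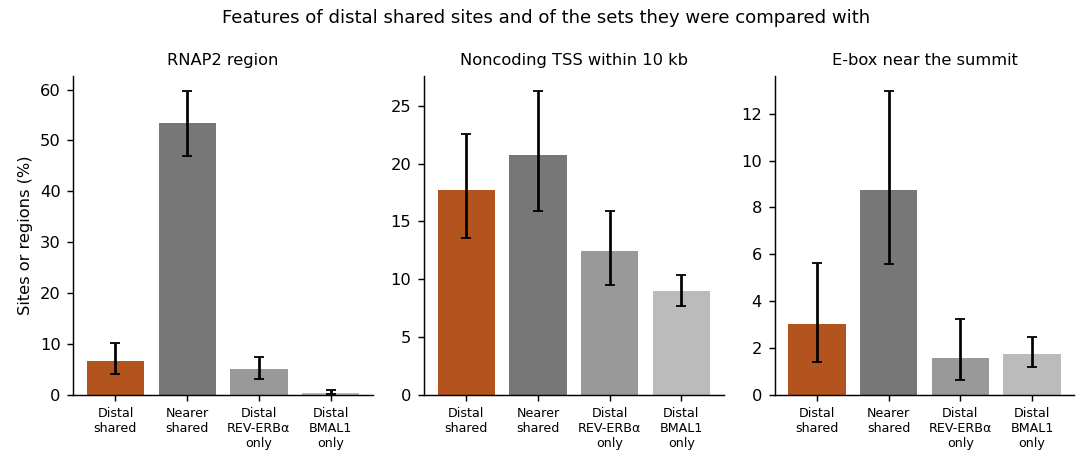
Percent of sites or regions with an RNAP2 region of both replicates, a noncoding TSS within 10 kb, and an E-box within 100 bp of the summit, for 299 distal shared sites, 251 nearer shared sites, 442 distal REV-ERBα regions without BMAL1 and 1785 distal BMAL1 regions without REV-ERBα; bars start at 0, error bars are exact 95% intervals and the panels have different scales. The RNAP2 share of nearer shared sites, 53.4%, stands above the other sets.

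The 20 distal sites with RNAP2 lay at 15 loci when sites within 50000 bp of each other count as 1 locus. They made up 5 of the 15 distal sites with a strength of at least 5 and 7 of the 40 with at least 3. Beside the loci already described, they included the site across the 3′ end of *Myl1*, an essential light chain of fast myosin (chromosome 1, 66922858 to 66925077). This site had 2.15 in BMAL1 replicate 2, no peak in BMAL1 replicate 1, 7.29 and 7.63 for REV-ERBα, and 9.37 and 4.199 in the RNAP2 lists. The others were at noncoding genes such as *Dleu2*, *Lncpint*, *2310001H17Rik* and *B230206L02Rik*, or nearest to *Klf6*, *Hsf2*, *Rps6ka1* and *Prkab1*. Midpoints inside a protein-coding gene were found for 2 of the 20.

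Most distal sites had no listed RNAP2 peak. No RNAP2 peak overlapped 213 of them (71.2%), against 78 nearer sites (31.1%). A peak of RNAP2 replicate 1 was present at 43 distal sites and of replicate 2 at 67, and the medians of these peaks, 3.97 and 2.60, were below those at nearer sites, 14.4 and 6.39.

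Starts of noncoding genes lay within 10000 bp of 53 distal sites (17.7%), against 19.1% of all shared sites. Nearer sites had one at 52 of 251 (20.7%), and the difference, distal minus nearer, of -2.99 points was not called (Fisher's exact test, adjusted p = 0.525; intervals 13.6 to 22.5% and 15.9 to 26.3%). Its sign turned under several settings, 4.34 points with a −log10 p of at least 3 among them. Distal REV-ERBα regions without BMAL1 had one at 55 of 442 (12.4%), a difference of 5.28 points that was not called (Fisher's exact test, adjusted p = 0.229). This depended on the setting, since it was called under 7 of 18 others, at up to 21.8 points, and turned under 2, to -3.35 and -0.934 points. It was 9.92 and 15.6 points without BMAL1 replicate 1 and 2, and 8.77 and 8.85 points without REV-ERBα replicate 1 and 2, called in each case but the first. Without a REV-ERBα list, the comparison was with the 19863 or 19099 regions of the other REV-ERBα list alone. Distal BMAL1 regions without REV-ERBα had one at 160 of 1785 (8.96%), 8.76 points below the distal shared sites (Fisher's exact test, adjusted p = 1.57e-04). That call was lost when a start had to lie within 1000 bp (adjusted p = 0.110, exact test) or every peak had to have a −log10 p of at least 3 (adjusted p = 0.764), and with a distance limit of 50000 bp the difference turned to -0.573 points (adjusted p = 1). Without the segment of copied sequence on chromosome 5 described below, 42 of 269 distal sites had a start. The difference was then 6.64 points (adjusted p = 0.0115, exact test). With 1 site per run of 50000 bp it was 6.36 points (adjusted p = 0.0466, exact test).

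Distal sites beside noncoding starts and distal sites with RNAP2 were partly the same. RNAP2 was present at 14 of the 53 sites with a noncoding start (26.4%) and at 6 of the 246 without one (2.44%), a description with no test. Genes of the lncRNA biotypes accounted for 41 of the 53, and microRNA hairpins for 7. At *Dleu2*, a host gene of the *Mir15a* and *Mir16-1* microRNAs, the site covered the start (chromosome 14, 61682125 to 61683124), with 2.79 in BMAL1 replicate 1, 5.65 and 2.64 for REV-ERBα, and 13.3 and 13.4 in the RNAP2 lists. At *Lncpint*, a p53-induced long noncoding RNA, the site (chromosome 6, 31216159 to 31217052) lay 239 bp from a start. Its values were 2.48 and 2.40 in the BMAL1 lists, 5.41 and 6.34 for REV-ERBα, and 5.85 and 10.8 in the RNAP2 lists.

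At *2310001H17Rik* (chromosome 6, 129236178 to 129237965) the values were 2.61 in BMAL1 replicate 1, 3.16 and 4.99 for REV-ERBα and 17.98 and 4.42 in the RNAP2 lists. At *Gm45218* (chromosome 6, 91598695 to 91599370), the site with the paired E-boxes had the values 6.39 and 4.89 in the BMAL1 lists, 2.05 in REV-ERBα replicate 1 and no RNAP2 peak. *A430078I02Rik*, on the antisense strand of another gene, had 2.995 and 1.73 in the BMAL1 lists, 2.15 in REV-ERBα replicate 2, and RNAP2 peaks of 2.35 and 2.60 that did not form a region of both replicates. RNAP2 regions of both replicates were thus found at some of these starts and not at others.

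A copy of the muscle microRNA pair also stands on chromosome 18, inside an intron of *Mib1*. The site there (10778617 to 10788011) covered the hairpins of *Mir133a-1*, *Mir1a-2* and *Mir1b*, with 6.74 and 6.43 in the BMAL1 lists, 13.99 and 16.3 for REV-ERBα, and 34.3 and 19.4 in the RNAP2 lists. It was the weaker of the 2 muscle microRNA sites in all 6 lists. Of the 25 genes in the list of muscle noncoding genes, 24 were in the annotation, and 6 of these were at distal sites and 0 at nearer sites. The 7 distal sites concerned had RNAP2 in 6 cases, against 6.69% of all distal sites. Of the 7, 5 were the sites of the *Neat1* run, which had RNAP2 at 4, some under 1 broad RNAP2 peak. The others were the 2 muscle microRNA sites. *Mir143* and *Mir145a*, microRNAs of smooth muscle, had a distal site on the same chromosome (61645126 to 61646830) with 2.92 in BMAL1 replicate 1, 2.50 and 3.16 for REV-ERBα, and RNAP2 peaks of 4.79 and 1.99 that formed no common region.

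None of the 24 genes of the clock list was the nearest gene of a distal site, while 12 of them were nearest to 17 nearer sites. Contractile genes, 46 in the list, were nearest to 20 distal sites (6.69%) of 4 genes and 38 nearer sites (15.1%) of 16 genes. Among the 4 genes were *Mylk4*, with 10 distal sites, *Ttn* with 8 and *Myl1* with 1. Of 43 metabolic genes, *Pfkfb3*, which sets the level of an activator of glycolysis, had 1 distal site, against 10 genes and 14 sites on the nearer side. The lists of myogenic regulators, calcium handling and atrophy and growth had 0 distal sites, and 1, 4 and 1 nearer sites. Distance to a start chose the sites, and the nearest gene need not be one that a site acts on.

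*Mylk4*, a myosin light chain kinase of muscle, had a run of 10 single-copy sites over 67269 bp (chromosome 13, 32698847 to 32766115). The sites covered 62.9% of the run, 9 had their midpoint inside the gene, and 7 had peaks in all 4 lists. At the strongest (32701848 to 32707569), 71704 bp downstream of the nearest *Mylk4* TSS, the values were 3.54 and 4.25 in the BMAL1 lists and 11.4 and 5.65 for REV-ERBα. The next, across the 3′ end (32698847 to 32701554), had 3.24 and 7.11 in the BMAL1 lists and 8.997 and 10.1 for REV-ERBα. REV-ERBα peaks covered 61.8% and 60.3% of the run, BMAL1 peaks 10.4% and 10.2%, and RNAP2 peaks 1.37% and 0.471%. No site of the run had an RNAP2 region of both replicates.

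*Ttn*, which encodes the giant sarcomeric spring titin, had 11 distal sites with their midpoint inside the gene, 3 of which were nearest to a start of *Plekha3*. A run of 10 distal sites, 9 of them inside *Ttn* and 1 intergenic, spanned 101664 bp (chromosome 2, 76701862 to 76803525). The strength of these 10 sites ranged from 1.40 to 3.02, and 2 had all 4 lists. The intergenic one (76701862 to 76703841) had 2.01 and 2.98 in the BMAL1 lists and 5.03 and 12.3 for REV-ERBα. At the other with all 4 lists (76767234 to 76769572) the values were 3.54 and 2.40 in the BMAL1 lists and 3.57 and 3.18 for REV-ERBα. REV-ERBα peaks covered 17.9% and 26.9% of the run, BMAL1 peaks 6.45% and 8.53%, and RNAP2 peaks 0.397% and 0%. The strongest at *Ttn*, outside the run (76952453 to 76954105), had 4.25 in BMAL1 replicate 2 and 3.57 and 3.18 for REV-ERBα, with no peak of RNAP2. At *Pfkfb3* (chromosome 2, 11468193 to 11471809) the site across the 3′ end had 2.37 and 3.596 in the BMAL1 lists, 4.78 and 5.58 for REV-ERBα, and RNAP2 peaks of 5.38 and 1.98 that were not a region of both replicates.

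**Figure D4:**
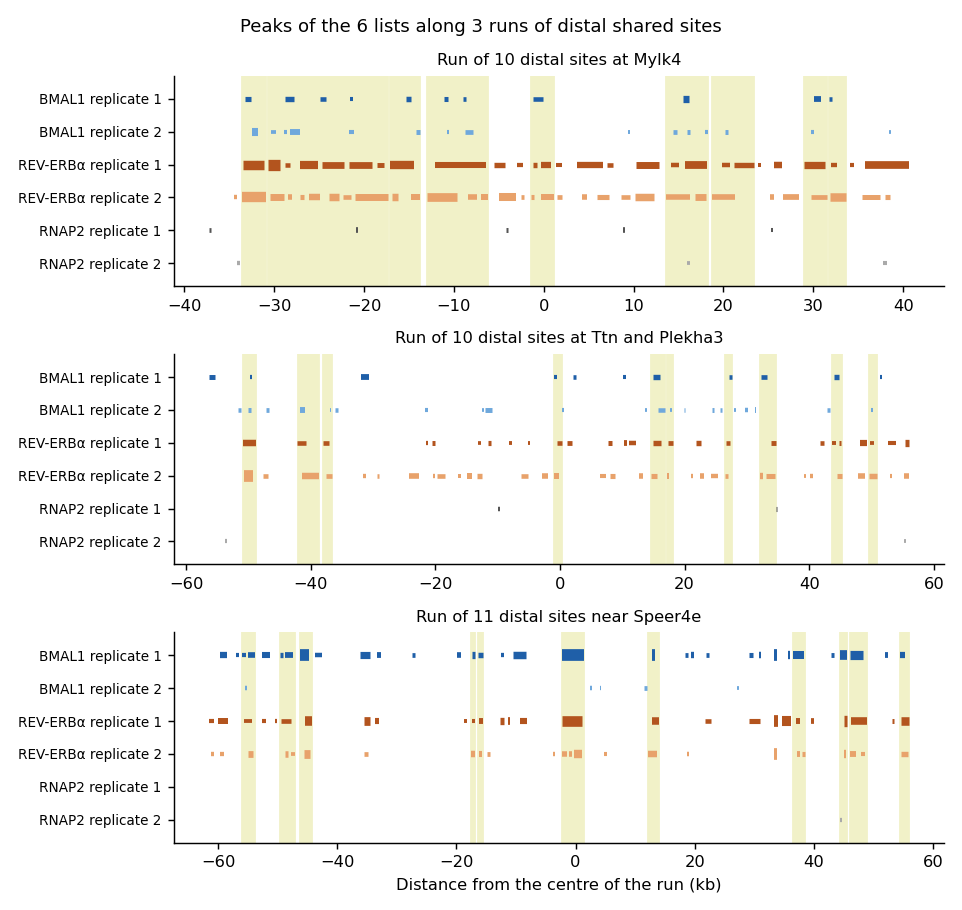
Peaks of the 6 lists along 3 runs of distal sites, in kb from the centre of each run; pale bands are distal shared sites, each dash is a peak, and thicker dashes have a higher −log10 p up to 12. REV-ERBα peaks fill most of the *Mylk4* run, and BMAL1 peaks near *Speer4e* come almost only from replicate 1.

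Many of the strong distal sites lay in sequence that occurs more than once in the genome. The window around the summit had 2 or more copies (95% identity over 90% of its length, itself included) at 75 distal sites (25.1%), 22 nearer sites (8.76%) and 36 of the 442 distal REV-ERBα regions (8.14%). Of the 40 distal sites with a strength of at least 3, 26 were such sites, and of the 51 nearer sites 7 were. None of the 75 had an RNAP2 region of both replicates, against 20 of the 224 single-copy sites (8.93%). Copies were counted on the main nuclear chromosomes only. The 224 therefore include a site on chromosome 1, described below, that matches the mitochondrial genome. BMAL1 replicate 1 had a peak at 61 of the 75 and BMAL1 replicate 2 at 43, while at single-copy sites the counts were 162 and 195 of 224. The authors removed reads that map to several places, and the part of sequence copies in these peaks was not tested.

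A segment of 750332 bp on chromosome 5 (14950639 to 15700970) held 30 of the distal sites (10.03%), near genes of the *Speer* family, which are active in testis. All 30 windows had between 2 and 154 copies. All 30 had a peak in BMAL1 replicate 1 and in both REV-ERBα lists, but 5 had one in BMAL1 replicate 2, although that list is the longest of the 4. The −log10 p ranged from 2.72 to 33.1 in BMAL1 replicate 1, from 1.47 to 15.5 in REV-ERBα replicate 1 and from 1.78 to 10.8 in REV-ERBα replicate 2. The segment had 21 of the 40 distal sites with a strength of at least 3 and 0 with RNAP2 in both replicates. Its strongest site (15677667 to 15682038), 857 bp from the start of *Speer4cos*, had 18.7, 9.13 and 9.08 in BMAL1 replicate 1 and REV-ERBα replicates 1 and 2.

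**Figure D5:**
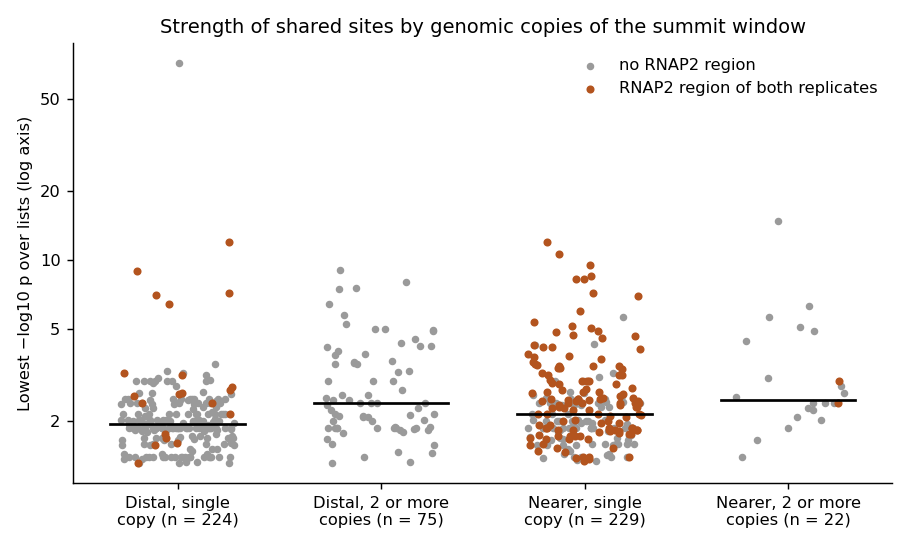
Strength, the lowest −log10 p over the lists with a peak (log axis), of each shared site by class and by whether the summit window has more than 1 copy in the genome; lines are medians and rust-coloured points have an RNAP2 region of both replicates. Among distal sites the single-copy points above 5 with RNAP2 are the 5 loci described above. The highest point is the site on chromosome 1, which counts as single copy because copies were counted on the main nuclear chromosomes only.

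The strongest distal site of all (chromosome 1, 24612338 to 24613530, 25462 bp from the start of *Col19a1*) had a −log10 p of 870 in BMAL1 replicate 1, 173 and 71.6 in REV-ERBα replicates 1 and 2, and no peak in BMAL1 replicate 2 or in RNAP2. Its whole length of 1193 bp was 99.8% identical to the mitochondrial genome, and no other distal site aligned to it. The lists hold 0 peaks on the mitochondrial chromosome. Other families of similar genes had runs too. A run of 10 sites near *Prl2c2* and *Prl2c3* (8 with copies) had a highest strength of 3.61, one of 6 near *Gvin1* (1 with copies) 2.92, and one of 4 near *Zfp985* and *Zfp979* (2 with copies) 3.29. None of these had RNAP2 in both replicates. Near *Arid1b* (chromosome 17, 4626184 to 4626681), a site of 498 bp with 2 copies had 17.4 in BMAL1 replicate 2, 4.57 and 8.44 for REV-ERBα, 3.97 in RNAP2 replicate 1 and no peak in BMAL1 replicate 1 or RNAP2 replicate 2.

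Without the sites that have copies and the site that matches the mitochondrial genome, the distal set held 223 sites, 20 of them with RNAP2. Leaving out nearer sites with copies left 229, of which 132 had RNAP2, and nearer sites were not aligned to the mitochondrial genome. The difference of -48.7 points was called (Fisher's exact test, adjusted p = 1.78e-28). Both selections were chosen after the sites were seen. The distal share of shared sites became 49.3%.

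The E-box CACGTG was less frequent at distal than at nearer sites, at 9 of 299 (3.01%) against 22 of 251 (8.76%), and at 5.64% of all shared sites (Fisher's exact test, adjusted p = 0.0308). This call was lost under 12 of 20 other settings, and the difference, -5.75 points, ranged from -18.2 to -3.18 points over the 20. Among sites with a strength of at least 3, 1 of 40 distal and 13 of 51 nearer sites had it. Windows with copies made up 26 of these 40 and 7 of these 51, and their part in this contrast was not tested. No E-box difference was called against the distal REV-ERBα regions (1.58%, adjusted p = 0.412, exact test) or the distal BMAL1 regions (1.74%, adjusted p = 0.376). Of the 9 distal sites, those at *Lncpint* and nearest to *Rps6ka1* had RNAP2 regions, and that at *Rps6ka1* (chromosome 4, 133910509 to 133911050) had 2.44 and 3.56 in the BMAL1 lists, 1.58 in REV-ERBα replicate 1 and 9.46 and 2.69 in the RNAP2 lists.

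For the other 5 motifs no difference was called among 15 tests. The core site AGGTCA was at 37 distal sites (12.4%; 12.5% of all shared sites), the myogenic E-box CAGCTG at 28 (9.36%; 11.5%) and the MEF2 site at 19 (6.35%; 5.09%). The variant CACGTT was at 7 and the REV-ERB/ROR monomer at 1. Distal windows had a median GC content of 41.8% and nearer windows 50.7%, and its part in the E-box difference was not tested. Midpoints inside protein-coding genes were found for 96 distal shared sites (32.1%), against 37.4% of all distal sites and regions, 38.9% of the REV-ERBα regions and 37.9% of the BMAL1 regions, and neither difference was called (Fisher's exact test, adjusted p = 0.229 for both). Both were called at a −log10 p of at least 2, with -15.8 points against the REV-ERBα regions (adjusted p = 0.00406, exact test) and -11.5 points against the BMAL1 regions (adjusted p = 0.0226), and when peaks were merged only at an overlap of 50% of the shorter. Without the chromosome 5 segment, at any −log10 p, 96 of 269 distal sites were inside such genes. The differences were then -3.49 points against the REV-ERBα regions and -2.23 points against the BMAL1 regions, not called. In single-copy windows the difference from the REV-ERBα regions was -1.18 points, not called. The stricter settings were not rerun without these sites.

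As a check of the tissue, RNAP2 regions of both replicates lay within 1000 bp of a start of 10 of 10 fast muscle marker genes. None of the 10 markers of liver, fat, endothelium, immune and heart cells had such a region.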

How the data were processed

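Peak lists of ChIP-seq from mouse gastrocnemius were analysed, 2 each for BMAL1, REV-ERBα and RNAP2. The input sample has no list of its own here. The authors aligned reads to mm10 with BWA (7.12 in the submitters' processing notes), removed duplicates and reads that map to several places, down-sampled replicates and called peaks per sample against input with MACS2 2.1.1 at a p cutoff of 0.05. The deposited values are each peak's fold enrichment over input and its −log10 p and −log10 q, of which the first 2 were used. The peak lists hold no read counts, so no interval for the counting error of a peak was made.

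Sites were built with Python 3.11.15, numpy 2.4.6 and pysam 0.24.0, and distances came from GENCODE M21 on GRCm38.p6. Shares have exact (Clopper-Pearson) 95% intervals over sites and were compared with the 2-sided Fisher's exact test in scipy 1.17.1, adjusted by Benjamini-Hochberg over 26 tests and called at 0.05. Copies were counted with BLAST+ 2.17.0, and the tests were checked on simulated data. Nothing in the labels says that replicates came from separate animals. Sites were named by rule: the strongest with 4 or 3 lists, those at listed genes, beside the limit, with the highest RNAP2, at noncoding starts, and the farthest and widest. Other sites were named after their values were seen: others with RNAP2, with an E-box or in runs, and those at *Arid1b*, *Mir23a* and *Mir143*. The members and gene lists were chosen with earlier results of these data known. A few sites and marker genes are not reported here.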

Additional observations from a re-analysis of the deposited data

How the results depend on the processing

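The lower share of RNAP2 at distal than at nearer shared sites was called under 20 of 20 alternatives, with differences of -60.9 to -32.5 points. Every alternative kept the split by distance to a protein-coding TSS. The 3 settings single-copy windows, 1 site per run of 50000 bp and leaving out the chromosome 5 segment, were chosen after seeing the data. The number of distal sites (299) became 161 and 48 at a −log10 p of at least 2 and 3, 185 when peaks were merged only at an overlap of 50% of the shorter, 138 with a limit of 50000 bp, 38 with all 4 lists, 126 with the 28000 strongest peaks of each list, and 96 to 110 when 1 of the 4 lists was left out and all 3 others were needed. The distal share (54.4%) became 49.1% and 39.3% at the stricter p, 42.9 to 50% with a list left out, 47.8% with the merge rule, 69.1%, 40.4% and 25.1% at limits of 5000, 20000 and 50000 bp, 68.7% from the 5′ end of each gene only, 34.5% with all 4 lists, 47.4% with equal lists and 49.3% in single-copy windows. Against distal BMAL1 regions, RNAP2 was not called at a −log10 p of at least 3 (7.24 points). Against distal REV-ERBα regions it was -4.89 points there, was called with all 4 lists (16.1 points), and ranged from 5.56 to 11.1 points with a list left out, called without REV-ERBα replicate 1 or 2. With a REV-ERBα list left out, the REV-ERBα regions came from the other REV-ERBα list alone, here and for noncoding starts. Noncoding starts against BMAL1 regions were not called at a −log10 p of at least 3 (14.4 points) or within 1000 bp (1.61 points) and were -0.573 points at a limit of 50000 bp. Against REV-ERBα regions they were called at a −log10 p of at least 2 (12.7 points), with the merge rule (9.03), all 4 lists (21.8) and equal lists (15.4), ranged from 8.77 to 15.6 points with a list left out, called in 3 of 4 cases, and were -3.35 points at a limit of 50000 bp and -0.934 points for starts within 50000 bp. Against nearer sites they were 3.33 and 4.34 points at the stricter p, 1.42 with the merge rule, 3.65 with all 4 lists, 2.78 with equal lists and -6.73 to 1.04 with a list left out, and were called at a limit of 50000 bp (-15.8) and for starts within 50000 bp (-22.1). Gene bodies were called against BMAL1 regions at a −log10 p of at least 2 (-11.5 points) and with the merge rule (-12.3), and against REV-ERBα regions at 2 (-15.8), at 3 (-33.4) and with the merge rule (-12.6). Without the chromosome 5 segment, at any −log10 p, they were -2.23 and -3.49 points in the same order, not called. The number of motif tests called, 1, became 0 with the merge rule, limits of 20000 and 50000 bp, all 4 lists, equal lists, 50 or 200 bp to each side, the REV-ERBα summit and 1 site per run, 2 from the 5′ end of each gene, and 0 to 2 with a list left out. Stricter settings leave fewer sites, and the cause of the other changes was not tested. Copies were not counted for the BMAL1 regions, so that setting gave no value against them. No paired analysis was possible because every result is an overlap of peak lists and none comes from a test across samples.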
